A study of Mus musculus with 36 samples.

Results

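Axon guidance ligands and receptors were measured in the hippocampus of CK-p25 mice, a transgenic line in which adult brain cells are made to express p25, a shortened form of the Cdk5 activator p35. The set was taken by gene symbol: class 3 to 7 semaphorins (Sema), plexins (Plxn), neuropilins (Nrp), ephrins (Efn), Eph receptors, Slits, Robo receptors, netrins (Ntn) and Unc5 receptors. It held 70 of the 37991 genes counted, of which 67 were ligand or receptor genes (20 semaphorins, 8 ephrins, 3 Slits, 3 netrins, 9 plexins, 2 neuropilins, 14 Eph receptors, 4 Robo and 4 Unc5 receptors). The other 3 were entries antisense to Plxna4. Of the 70, 65 had enough reads to be tested.

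RNA sequencing covered 4 groups of 3 libraries: double-transgenic CK-p25 mice (CKp25) at 2 and at 6 weeks after p25 induction, and their control littermates (CK) at the same times. All were adult females, given as 3 months old at both times, and the hippocampus was frozen on dissection. As background, p25 in this line is driven in forebrain neurons through the CaMKII promoter, and neurons are lost after induction; the labels name neither that promoter nor the transgenes that controls carry. Whether a library number stands for an animal is not stated, so the p-values reflect how libraries varied, which may be technical variation alone. Time since induction, age and any batch of a time cannot be told apart.

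Guidance cues steer growing axons during development by attraction or repulsion. Semaphorins act through plexins, with neuropilins as binding partners for most secreted class 3 members. Ephrins are membrane ligands of the Eph receptor tyrosine kinases and can also signal back into their own cell, Slits repel axons through Robo receptors, and netrins attract through Dcc and repel through Unc5 receptors. In the adult hippocampus many of these genes remain active in neurons, where they act on dendritic spines and synapses, and others are used by glia and blood vessels.

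Libraries held 5029996 to 6450140 gene counts, of which 17861 to 29754 belonged to the set. Levels are given in CPM, counts scaled to a library of fixed size, with sizes adjusted by trimmed mean of M-values (TMM). Since CPM is not divided by gene length, levels are compared between groups and not between genes. Libraries are listed in one order throughout: CKp25_2wk_4518, CKp25_2wk_4890 and CKp25_2wk_4894; CK_2wk_4520, CK_2wk_4891 and CK_2wk_4893; CKp25_6wk_3937, CKp25_6wk_3940 and CKp25_6wk_4008; CK_6wk_3936, CK_6wk_3938 and CK_6wk_4009. At 2 weeks CKp25_2wk_4518 and CK_2wk_4520 stood apart, where 6.81 and 7.15% of reads had several alignments, against 12.2 to 14.3% in the other 4 libraries. At 6 weeks that share was 11.5 to 13.9% in CKp25 and 6.86 to 9.52% in CK. The genotypes did not overlap in it at that time, so its part cannot be fully told apart from that of genotype there. Hippocampal neuron markers (Prox1, Wfs1, Hpca, Neurod6, Spink8 and Neurod2) were detected in every group. Ttr, made by the choroid plexus, ranged over 6.44 to 2244 CPM and was high in some libraries and low in others of every group.

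The first question was how the set differed between CKp25 and CK at each time. At 2 weeks, 4 members were higher in CKp25 (Epha2, Plxnb2, Sema4d and Plxnb1) and 10 were lower (Sema4f, Sema7a, Epha6, Sema6b, Epha4, Slit1, Slit2, Efnb3, Epha7 and Robo2). At 6 weeks, 11 were higher, led by Plxnb2, Ephb4, Ntn4, Sema3g and Plxnb1, and 17 were lower, led by Slit1, Ntn5, Plxna4, Slit3 and Sema5a. The 6-week calls took in all 3 plexins of the B class on the higher side, and Slit1, Slit3, 4 EphA receptors, Plxna1, Plxna4 and Unc5a on the lower side. Calls are adjusted p under 0.05 in edgeR's quasi-likelihood test with Benjamini-Hochberg adjustment over all 14457 genes tested.

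Of the genes tested at 2 weeks, 11.6% were called higher and 7.99% lower. The 4 higher of 65 members lay below that background and the 10 lower of 65 above it. The lower count fell when CKp25_2wk_4890 or CKp25_2wk_4894 was left out, as did that of all genes. At 6 weeks the background was 18.1% higher and 15.2% lower, so 11 higher of 65 members was near the background and 17 lower of 65 was above it. The set was chosen with earlier results of these data known, so none of these counts is read as particular to it. The median log2 fold change of the members was -0.10 at 2 weeks and -0.16 at 6 weeks, where that of all genes tested was -0.01 and 0.00. Of the 14 members called at 2 weeks and the 28 called at 6 weeks, 10 were called at both, all with the same sign (71.4% of the first list and 35.7% of the second). The same overlap was not counted over all genes, so it is not read as particular to the set. Efnb3, Epha2, Sema7a and Slit2 were called at 2 weeks only, which does not by itself show that their effects differed between the times.

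**Figure D1:**
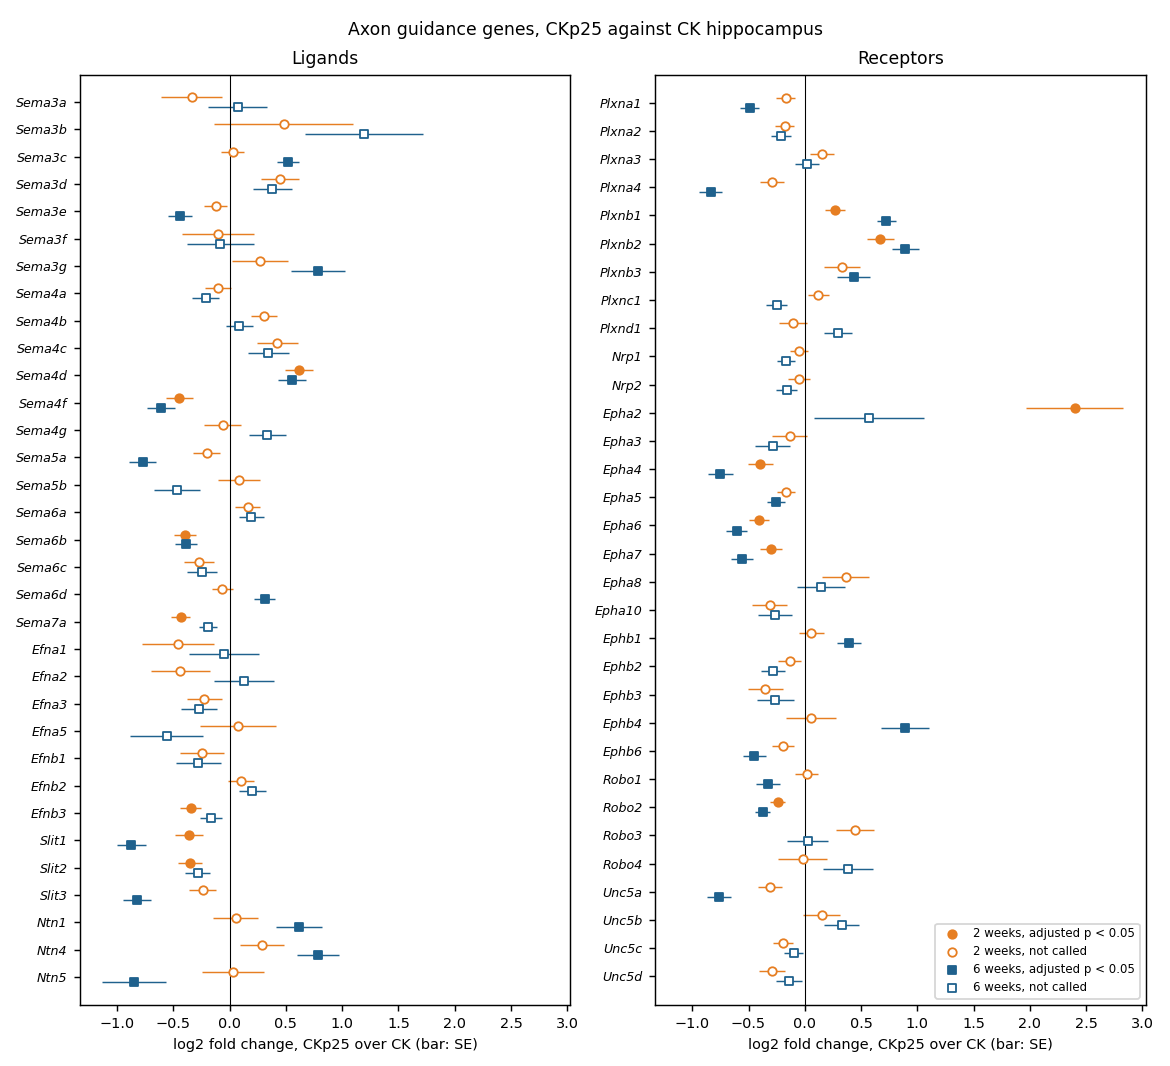
Log2 fold change of CKp25 over CK for each tested member, ligands on the left and receptors on the right, with bars of 1 SE. Circles are 2 weeks and squares 6 weeks, and filled symbols passed an adjusted p of 0.05. Epha2 at 2 weeks (2.40) lies farthest to the right, and Slit1 at 6 weeks (-0.87) has the lowest called value.

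Markers of cell types moved between the same groups. Of 10 neuron markers, 8 were lower in CKp25 at 2 weeks, when the list summed to 3989 to 4373 CPM in CKp25 and 5451 to 5832 CPM in CK, and 8 at 6 weeks, when it summed to 3168 to 4137 CPM in CKp25 and 5246 to 5705 CPM in CK. All 9 microglia markers were higher at both times, with sums of 864 to 1125 CPM in CKp25 and 238 to 257 CPM in CK at 2 weeks and of 1038 to 1371 CPM in CKp25 and 221 to 251 CPM in CK at 6 weeks. Of 7 astrocyte markers, 4 were higher at 2 weeks (7309 to 7714 CPM in CKp25 and 5311 to 5787 CPM in CK) and 7 at 6 weeks (9805 to 12303 CPM in CKp25 and 5449.8 to 6055 CPM in CK). Of 6 oligodendrocyte markers, 1 was higher at 2 weeks (2376 to 2896 CPM in CKp25 and 2361 to 2661 CPM in CK) and 6 at 6 weeks (3855 to 4729 CPM in CKp25 and 2590.5 to 3327 CPM in CK).

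Of 6 endothelial markers, 6 were higher at 6 weeks, when the list summed to 221 to 264 CPM in CKp25 and 159 to 184 CPM in CK. At 2 weeks 0 were called, and their sums were 172 to 180.4 CPM in CKp25 and 165 to 199.7 CPM in CK. Pericyte and fibroblast markers gave 6 of 7 higher at 6 weeks, with 249 to 312 CPM in CKp25 and 156 to 196 CPM in CK, and 0 of 7 called at 2 weeks, with 187 to 209.7 CPM in CKp25 and 153 to 209.9 CPM in CK. In edgeR's test of the difference between the effects at the 2 times, 0 of the 6 endothelial and 0 of the 7 pericyte and fibroblast markers were called. Of the 6 hippocampal neuron markers, 3 were lower at 2 weeks (888 to 963 CPM in CKp25 and 1136 to 1273 CPM in CK) and 5 at 6 weeks (459 to 669 CPM in CKp25 and 987 to 1172 CPM in CK). Of 4 markers of oligodendrocyte precursors, 2 were higher at 6 weeks, with sums of 187 to 226 CPM in CKp25 and 169 to 198 CPM in CK.

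None of the 8 choroid plexus markers was called at either time, and their sums at 6 weeks spread over 201 to 3372 CPM in CKp25 and 192 to 3792 CPM in CK. No marker of the lists above was at 0 in a group. The 4 T cell markers had too few reads to be tested and summed to at most 2.60 CPM in a library. Cd3e was at 0 in CKp25 at both times and in CK at 6 weeks, Cd3g was at 0 in CK at both times, and Cd8a in CK at 6 weeks. In bulk tissue, fewer cells of a type and less RNA per cell cannot be told apart. The mean of the choroid plexus genes was used as a covariate in an alternative fit, given below. The part of the other lists in the results on guidance genes was not tested.

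**Figure D2:**
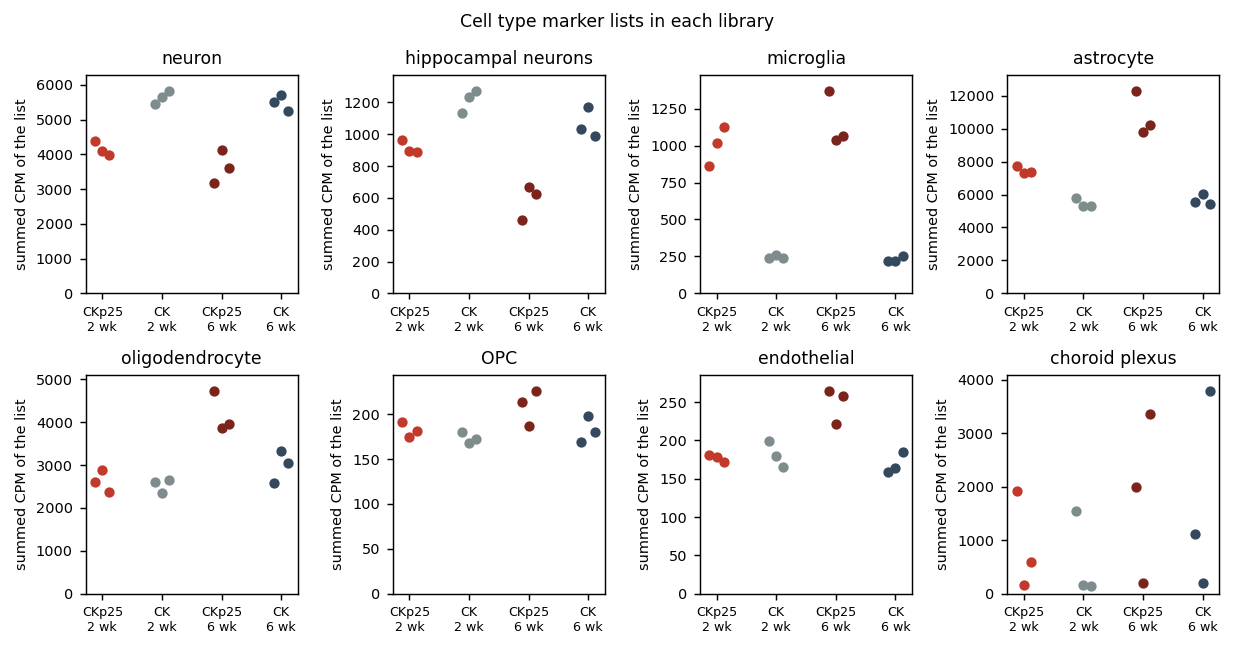
Summed CPM of 8 marker lists in each library, with groups along the x axis and CPM on the y axis. Points are libraries. Neuron lists are lower in CKp25 than in CK at both times and microglia and astrocyte lists are higher, while the oligodendrocyte and endothelial lists separate the groups at 6 weeks and overlap at 2 weeks.

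Promoter sequences are shown for the called member with a log2 fold change beyond 1 (Epha2) and, chosen after their values were seen, for Plxnb1, Plxnb2 and Unc5a. These were among the members with the smallest p at 6 weeks. Plxna4, whose p was smaller than that of Unc5a, had no usable promoter entry. Each is the 250 bases before the start site in RefSeq's table of build GRCm38.p6, printed on the gene's strand. Capitals mark GGGCGG or its complement CCGCCC, the box bound by Sp1, and TGACGTCA, the cyclic AMP response element. The Epha2 stretch (ENSMUSG00000006445) is chr4:141300971-141301220 on the plus strand, and that of Plxnb1 (ENSMUSG00000053646) is chr9:109095186-109095435 on the plus strand. The Plxnb2 stretch (ENSMUSG00000036606) is chr15:89180789-89181038 on the minus strand, and that of Unc5a (ENSMUSG00000025876) is chr13:54949161-54949410 on the plus strand.
Epha2: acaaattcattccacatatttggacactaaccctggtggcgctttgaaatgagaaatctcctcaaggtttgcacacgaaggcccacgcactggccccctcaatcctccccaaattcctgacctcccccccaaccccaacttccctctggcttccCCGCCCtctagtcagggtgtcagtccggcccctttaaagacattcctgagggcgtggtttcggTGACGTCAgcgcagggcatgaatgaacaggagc
Plxnb1: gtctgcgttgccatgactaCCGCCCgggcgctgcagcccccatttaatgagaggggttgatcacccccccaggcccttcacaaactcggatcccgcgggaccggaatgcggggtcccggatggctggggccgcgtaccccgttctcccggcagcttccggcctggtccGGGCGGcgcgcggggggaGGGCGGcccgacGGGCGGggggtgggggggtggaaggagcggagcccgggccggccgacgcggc
Plxnb2: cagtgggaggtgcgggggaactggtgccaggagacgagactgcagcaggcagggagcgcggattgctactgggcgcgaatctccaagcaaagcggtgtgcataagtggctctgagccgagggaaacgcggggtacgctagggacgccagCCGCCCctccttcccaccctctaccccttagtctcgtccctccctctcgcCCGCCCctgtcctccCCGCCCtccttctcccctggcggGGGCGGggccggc
Unc5a: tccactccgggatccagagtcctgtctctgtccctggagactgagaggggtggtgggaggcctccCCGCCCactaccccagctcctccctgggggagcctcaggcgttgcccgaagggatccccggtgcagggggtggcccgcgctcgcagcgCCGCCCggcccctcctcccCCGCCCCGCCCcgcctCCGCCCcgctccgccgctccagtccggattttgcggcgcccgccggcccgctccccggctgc

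The Epha2 stretch held 1 CCGCCC and 1 TGACGTCA, 96 and 33 bases before the start site (position of the first base of each match). Plxnb1 and Plxnb2 held 4 matches of the Sp1 box each, and Unc5a held 5, of which 2 overlap. Of the 70 symbols 58 had an entry. Where a symbol had more than 1 entry, as 12 members did, only the first listed start site was used. GGGCGG on either strand lay in 42 of those 58 promoters (72.4%), against 32.9% of 27018 promoters. It lay in 7 of the 10 promoters of members higher at 6 weeks and in 10 of the 14 of members lower then. The median base content was 64.6% G and C in the members and 52.0% in all promoters. TGACGTCA lay in 1 member promoter and in 1.62% of all. The 4 other motifs searched on both strands, GAGGAAG (PU.1), TTCNNNGAA (STAT), TGANTCA (AP-1) and TTTCCCGC (E2F), had no match in these 4 stretches. A match describes the letters and is not a site of binding.

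Among the ligands, the 20 semaphorins gave 1 higher and 3 lower members at 2 weeks, and 4 higher and 4 lower at 6 weeks. Sema4d, a membrane semaphorin that binds plexin-B1 and, on immune cells, Cd72, was higher at both times. At 2 weeks Sema4d had 38.0, 48.2 and 49.2 CPM in CKp25 libraries, against 29.2, 31.1 and 28.0 CPM in CK libraries (log2 fold change 0.61 ± 0.12 (SE), adjusted p = 0.00182). At 6 weeks Sema4d had 50.4, 40.6 and 39.6 CPM in CKp25 libraries, against 31.3, 31.6 and 26.0 CPM in CK libraries (log2 fold change 0.55 ± 0.12 (SE), adjusted p = 0.00243). Every CKp25 library lay above every CK library of its time.

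Secreted class 3 semaphorins were called at 6 weeks. At 6 weeks Sema3c, which acts through neuropilins and can attract cortical axons, had 51.2, 50.4 and 43.3 CPM in CKp25 libraries, against 37.6, 32.4 and 31.3 CPM in CK libraries (log2 fold change 0.52 ± 0.10 (SE), adjusted p = 0.000773). At 6 weeks Sema3g, which binds neuropilin-2 and is made by blood vessels, had 9.20, 8.70 and 9.09 CPM in CKp25 libraries, against 5.90, 5.06 and 4.71 CPM in CK libraries (log2 fold change 0.78 ± 0.24 (SE), adjusted p = 0.0176). For both genes the CKp25 libraries were all above the CK libraries. At 6 weeks Sema3e, a ligand that binds plexin-D1 directly, had 39.2, 44.8 and 53.1 CPM in CKp25 libraries, against 60.6, 66.6 and 59.2 CPM in CK libraries (log2 fold change -0.44 ± 0.11 (SE), adjusted p = 0.00439), with all CKp25 libraries below the CK libraries. At 2 weeks their log2 fold changes were 0.03 ± 0.10 for Sema3c, 0.27 ± 0.25 for Sema3g and -0.12 ± 0.10 for Sema3e, and none was called. The Sema3g call was lost without CKp25_6wk_3937, CK_6wk_3938 or CK_6wk_4009 (log2 fold changes of 0.71 to 0.77, adjusted p of 0.0511 to 0.0626).

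Of the membrane-bound members of classes 4 to 7, Sema4f, Sema6b and Sema7a were lower and Sema4d higher at 2 weeks, and Sema4f, Sema5a and Sema6b were lower and Sema4d and Sema6d higher at 6 weeks. At 2 weeks Sema4f had 22.2, 22.1 and 22.6 CPM in CKp25 libraries, against 29.3, 30.1 and 31.9 CPM in CK libraries (log2 fold change -0.45 ± 0.12 (SE), adjusted p = 0.0135). At 6 weeks Sema4f had 17.8, 23.2 and 18.4 CPM in CKp25 libraries, against 33.8, 31.8 and 26.0 CPM in CK libraries (log2 fold change -0.61 ± 0.12 (SE), adjusted p = 0.00102). The groups did not overlap at either time. At 2 weeks Sema6b, a ligand of A class plexins in the hippocampal mossy fibre system, had 76.2, 86.4 and 76.0 CPM in CKp25 libraries, against 93.9, 109 and 111 CPM in CK libraries (log2 fold change -0.40 ± 0.10 (SE), adjusted p = 0.00759). At 6 weeks Sema6b had 62.0, 82.6 and 75.7 CPM in CKp25 libraries, against 100.3, 95.9 and 93.4 CPM in CK libraries (log2 fold change -0.39 ± 0.10 (SE), adjusted p = 0.00569). Its CKp25 libraries were again all below the CK libraries. At 2 weeks Sema7a, a lipid-anchored semaphorin that signals through integrin beta-1 and plexin-C1, had 65.6, 58.4 and 56.9 CPM in CKp25 libraries, against 73.8, 86.7 and 85.1 CPM in CK libraries (log2 fold change -0.44 ± 0.08 (SE), adjusted p = 0.000921), with no overlap. At 6 weeks its log2 fold change was -0.19 ± 0.08 (adjusted p = 0.0795). The Sema4f call at 2 weeks was lost without CK_2wk_4893 (log2 fold change -0.42, adjusted p = 0.0541).

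Sema5a and Sema6d were called at 6 weeks in opposite directions. Sema5a carries thrombospondin repeats and restrains synapse formation on dentate granule cells. At 6 weeks Sema5a had 70.6, 79.6 and 92.9 CPM in CKp25 libraries, against 121, 169 and 127 CPM in CK libraries (log2 fold change -0.77 ± 0.12 (SE), adjusted p = 0.000128). At 6 weeks Sema6d, a ligand of plexin-A1, had 151, 122 and 139 CPM in CKp25 libraries, against 96.6, 119.8 and 115 CPM in CK libraries (log2 fold change 0.31 ± 0.09 (SE), adjusted p = 0.0175). The CKp25 libraries of Sema5a lay well below those of CK, while those of Sema6d were higher by a narrow margin. At 2 weeks the log2 fold changes were -0.20 ± 0.12 for Sema5a and -0.06 ± 0.10 for Sema6d, and neither was called. The Sema6d call was lost without CKp25_6wk_3937, CKp25_6wk_4008 or CK_6wk_3936 (log2 fold changes of 0.22 to 0.30, adjusted p of 0.0529 to 0.107).

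The other semaphorins were called at neither time. Sema3b had the widest interval among them, with 14.2, 4.67 and 14.0 CPM in CKp25 libraries, against 3.87, 1.21 and 8.73 CPM in CK libraries at 6 weeks (log2 fold change 1.19 ± 0.53 (SE), adjusted p = 0.0929). CK_6wk_4009 lay above the lowest CKp25 library. The libraries low in Sema3b, CKp25_6wk_3940 and CK_6wk_3938, were also those low in Ttr at that time. The fit with the choroid plexus covariate included Sema3b, but its value there was not kept, so the part of Ttr in this result is not given. Sema6a, a ligand of plexin-A2 and plexin-A4, had 36.8, 34.0 and 34.4 CPM in CKp25 libraries, against 27.5, 31.8 and 32.7 CPM in CK libraries at 6 weeks, a log2 fold change of 0.19 ± 0.11 and a 95% interval of -0.04 to 0.42. Sema3a, a secreted repellent, had log2 fold changes of -0.34 ± 0.27 at 2 weeks and 0.07 ± 0.26 at 6 weeks.

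Of 7 ephrins tested, 1 was called. At 2 weeks Efnb3, a transmembrane ligand that repels axons at the spinal midline, had 48.1, 55.1 and 46.6 CPM in CKp25 libraries, against 63.9, 67.5 and 58.7 CPM in CK libraries (log2 fold change -0.35 ± 0.10 (SE), adjusted p = 0.0158). The CKp25 libraries lay below the CK libraries. At 6 weeks Efnb3 had 52.0, 54.3 and 59.3 CPM in CKp25 libraries, against 56.6, 59.9 and 69.0 CPM in CK libraries and was not called (log2 fold change -0.17 ± 0.10 (SE), adjusted p = 0.202). The 2-week call was lost without CKp25_2wk_4894 or CK_2wk_4891 (log2 fold changes of -0.29 to -0.30, adjusted p of 0.0737 to 0.0911) and without CK_2wk_4520 and CKp25_2wk_4518 together (-0.32, adjusted p = 0.0866). Efnb2, the ligand of EphB4 on arteries, was not called, with log2 fold changes of 0.10 ± 0.12 at 2 weeks and 0.20 ± 0.12 at 6 weeks, and 95% intervals of -0.14 to 0.34 and -0.05 to 0.45. The lipid-anchored A class ephrins Efna1, Efna2, Efna3 and Efna5 had log2 fold changes between -0.46 and 0.07 at 2 weeks and between -0.56 and 0.13 at 6 weeks, and none was called.

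Slits were lower in CKp25 wherever they were called. At 2 weeks Slit1, which is made largely by neurons, had 236, 187 and 188 CPM in CKp25 libraries, against 266, 253 and 267 CPM in CK libraries (log2 fold change -0.36 ± 0.12 (SE), adjusted p = 0.0497). At 6 weeks Slit1 had 119, 151 and 163 CPM in CKp25 libraries, against 244, 317 and 232 CPM in CK libraries (log2 fold change -0.87 ± 0.13 (SE), adjusted p = 5.59e-05). Every CKp25 library lay below every CK library, with CKp25_6wk_3937 lowest. The 2-week call was near the threshold and was lost without CKp25_2wk_4890, CKp25_2wk_4894, CK_2wk_4520, CK_2wk_4891, CK_2wk_4893, CKp25_6wk_3940 or CK_6wk_3936 (log2 fold changes of -0.30 to -0.39, adjusted p of 0.0523 to 0.198), with DESeq2's size factors (-0.36, adjusted p = 0.0518) and with the choroid plexus covariate (-0.35, adjusted p = 0.0551).

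At 2 weeks Slit2 had 61.2, 49.0 and 54.1 CPM in CKp25 libraries, against 69.4, 73.6 and 67.7 CPM in CK libraries (log2 fold change -0.35 ± 0.11 (SE), adjusted p = 0.0242). At 6 weeks Slit2 had 37.2, 48.8 and 49.8 CPM in CKp25 libraries, against 57.8, 57.1 and 51.3 CPM in CK libraries, with no call (log2 fold change -0.28 ± 0.11 (SE), adjusted p = 0.0568). Its CKp25 libraries were below its CK libraries at both times. At 2 weeks Slit3 had 89.1, 72.1 and 86.3 CPM in CKp25 libraries, against 95.2, 94.3 and 103 CPM in CK libraries, with no call (log2 fold change -0.24 ± 0.12 (SE), adjusted p = 0.187). At 6 weeks Slit3 had 49.6, 55.9 and 63.8 CPM in CKp25 libraries, against 88.7, 123 and 88.9 CPM in CK libraries (log2 fold change -0.82 ± 0.12 (SE), adjusted p = 8.47e-05). The Slit3 groups did not overlap, and CK_6wk_3938 was the highest library. The Slit2 call was lost without CKp25_2wk_4890, CKp25_2wk_4894 or CK_2wk_4891 (log2 fold changes of -0.28 to -0.34, adjusted p of 0.0899 to 0.104).

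The netrins of the set were Ntn1, Ntn4 and Ntn5, and no gene counted had the symbol Ntn3. All 3 were called at 6 weeks and none at 2 weeks. At 6 weeks Ntn1, the attractant of commissural axons, had 7.20, 7.09 and 9.09 CPM in CKp25 libraries, against 4.88, 5.46 and 4.89 CPM in CK libraries (log2 fold change 0.62 ± 0.20 (SE), adjusted p = 0.0262). At 6 weeks Ntn4, a netrin of basement membranes that binds laminin, had 11.8, 8.37 and 12.2 CPM in CKp25 libraries, against 5.90, 6.07 and 6.64 CPM in CK libraries (log2 fold change 0.79 ± 0.19 (SE), adjusted p = 0.00401). In both genes the CKp25 libraries lay above the CK libraries. At 6 weeks Ntn5 had 2.20, 4.51 and 3.64 CPM in CKp25 libraries, against 5.90, 5.66 and 7.33 CPM in CK libraries (log2 fold change -0.85 ± 0.28 (SE), adjusted p = 0.0283), with the CKp25 libraries below the CK libraries. The counts were low, with 36, 44 and 50 counts in CKp25 libraries and 24, 27 and 28 counts in CK libraries for Ntn1 and 11, 28 and 20 counts in CKp25 libraries and 29, 28 and 42 counts in CK libraries for Ntn5. At 2 weeks the log2 fold changes were 0.05 ± 0.20 for Ntn1, 0.29 ± 0.19 for Ntn4 and 0.03 ± 0.28 for Ntn5. The Ntn1 call was lost without CKp25_6wk_4008, CK_6wk_3936 or CK_6wk_4009 (log2 fold changes of 0.49 to 0.59, adjusted p of 0.0725 to 0.118), with no filter on low counts (0.61, adjusted p = 0.0689), in DESeq2's Wald test (0.62, adjusted p = 0.106) and with the share of reads with several alignments as a covariate (0.52, adjusted p = 0.158). The Ntn5 call was lost without CKp25_6wk_3937, CKp25_6wk_4008 or CK_6wk_4009 (log2 fold changes of -0.63 to -0.88, adjusted p of 0.059 to 0.127) and in DESeq2's Wald test (-0.86, adjusted p = 0.0576).

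**Figure D3:**
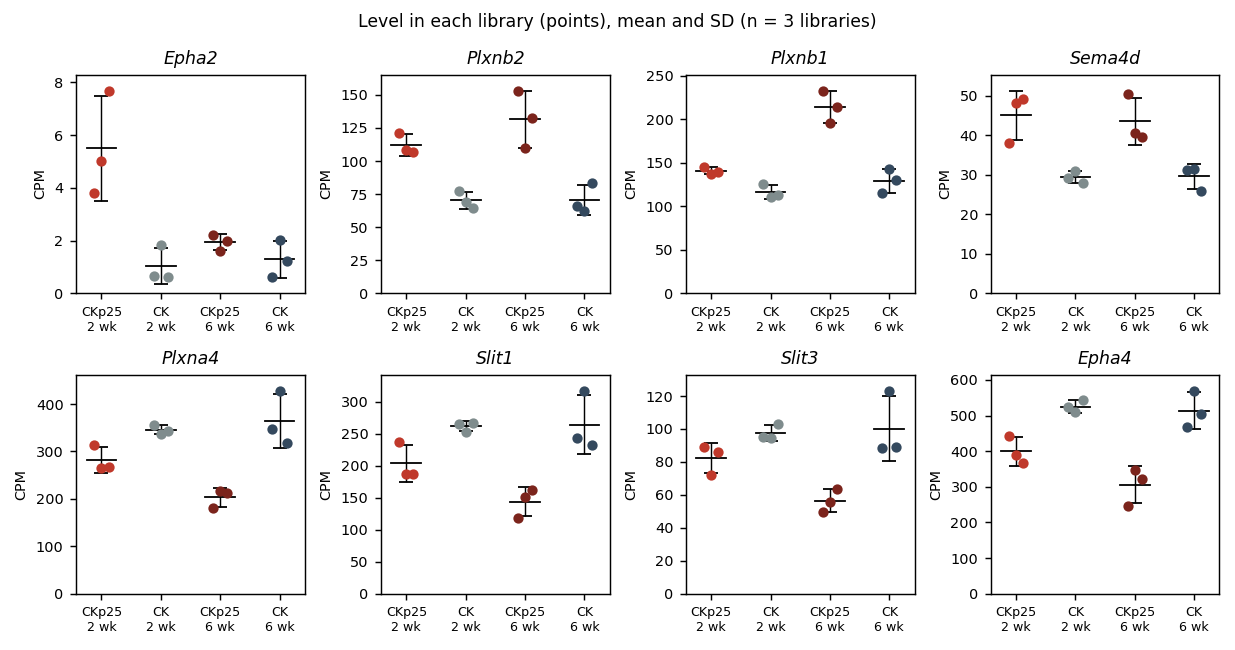
Level in CPM of 8 members in each library. Groups are on the x axis, points are libraries, and lines are the mean and SD of 3 libraries. Epha2 is highest in CKp25 at 2 weeks, Plxnb2, Plxnb1 and Sema4d are higher in CKp25 at both times, and Plxna4, Slit1, Slit3 and Epha4 are lowest in CKp25 at 6 weeks.

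Among the receptors, the 9 plexins gave 2 higher members at 2 weeks, and 3 higher and 2 lower at 6 weeks. The 3 plexins of the B class were the higher ones. At 2 weeks Plxnb2, a receptor of class 4 semaphorins found on neural progenitors, glia and macrophages, had 121, 108 and 107 CPM in CKp25 libraries, against 77.5, 68.9 and 64.6 CPM in CK libraries (log2 fold change 0.67 ± 0.12 (SE), adjusted p = 0.000699). At 6 weeks Plxnb2 had 153, 109.8 and 132 CPM in CKp25 libraries, against 65.9, 62.3 and 83.3 CPM in CK libraries (log2 fold change 0.89 ± 0.12 (SE), adjusted p = 2.91e-05). The lowest CKp25 library was above the highest CK library at both times. At 2 weeks Plxnb1, the receptor of Sema4d, had 145, 137 and 139.7 CPM in CKp25 libraries, against 126, 111 and 114 CPM in CK libraries (log2 fold change 0.27 ± 0.09 (SE), adjusted p = 0.036). At 6 weeks Plxnb1 had 233, 195 and 214 CPM in CKp25 libraries, against 115, 143 and 130.3 CPM in CK libraries (log2 fold change 0.73 ± 0.09 (SE), adjusted p = 6.9e-06). Its groups did not overlap, and the gap between them was wider at 6 weeks. At 6 weeks Plxnb3, which binds Sema5a, had 60.6, 41.7 and 48.9 CPM in CKp25 libraries, against 29.5, 45.3 and 36.7 CPM in CK libraries (log2 fold change 0.43 ± 0.15 (SE), adjusted p = 0.0314). CK_6wk_3938 lay above CKp25_6wk_3940 in Plxnb3, so its groups overlapped.

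The 2-week Plxnb1 call was lost without CKp25_2wk_4518, CKp25_2wk_4890, CKp25_2wk_4894, CK_2wk_4891, CK_2wk_4893 or CKp25_6wk_4008 (log2 fold changes of 0.23 to 0.29, adjusted p of 0.0505 to 0.146) and without CK_2wk_4520 and CKp25_2wk_4518 together (0.30, adjusted p = 0.0551). The Plxnb3 call was lost without CKp25_6wk_3937, CKp25_6wk_4008, CK_6wk_3936 or CK_6wk_4009 (log2 fold changes of 0.28 to 0.45, adjusted p of 0.058 to 0.189) and in a fit of those groups alone (0.43, adjusted p = 0.0539). Both Plxnb2 calls and the 6-week Plxnb1 call held in every alternative run. No alternative turned round the sign of a called member.

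Plxna1 and Plxna4 were lower at 6 weeks. Plexins of the A class transmit class 3 semaphorin signals with neuropilins and bind class 6 semaphorins directly. At 2 weeks Plxna4 had 315, 264 and 267 CPM in CKp25 libraries, against 356, 337 and 344 CPM in CK libraries, with no call (log2 fold change -0.29 ± 0.10 (SE), adjusted p = 0.0601). At 6 weeks Plxna4 had 181, 217 and 212 CPM in CKp25 libraries, against 347, 427 and 317 CPM in CK libraries (log2 fold change -0.84 ± 0.11 (SE), adjusted p = 1.51e-05). The CKp25 libraries were below the CK libraries at both times. At 6 weeks Plxna1 had 146, 151 and 149 CPM in CKp25 libraries, against 198, 236 and 194 CPM in CK libraries (log2 fold change -0.49 ± 0.09 (SE), adjusted p = 0.000376), with no overlap, and at 2 weeks its log2 fold change was -0.17 ± 0.09 with no call. Plxna2 was not called, with log2 fold changes of -0.18 ± 0.09 at 2 weeks and -0.21 ± 0.09 at 6 weeks (adjusted p = 0.0709). Plxna3, Plxnc1 and Plxnd1 were not called.

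Neither neuropilin was called. At 6 weeks Nrp1, which pairs with plexins and also binds vascular endothelial growth factor, had 118, 112 and 117 CPM in CKp25 libraries, against 127, 139 and 122 CPM in CK libraries (log2 fold change -0.16 ± 0.08 (SE), adjusted p = 0.129). The 95% interval of its log2 fold change was -0.22 to 0.11 at 2 weeks and -0.33 to 0.00 at 6 weeks. Nrp2, which binds Sema3f and is strong in the hippocampus, had log2 fold changes of -0.05 ± 0.09 at 2 weeks and -0.16 ± 0.10 at 6 weeks, with 95% intervals of -0.25 to 0.15 and -0.36 to 0.04.

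Of 13 Eph receptors tested, 1 was higher and 3 were lower at 2 weeks, and 2 were higher and 5 lower at 6 weeks. Epha2, a receptor of ephrin-A1 best known in epithelia and blood vessels, was higher at 2 weeks. At 2 weeks Epha2 had 3.79, 5.01 and 7.68 CPM in CKp25 libraries, against 0.671, 1.84 and 0.610 CPM in CK libraries (log2 fold change 2.40 ± 0.43 (SE), adjusted p = 0.000656). These rest on 26, 27 and 47 counts in CKp25 libraries and 4, 9 and 3 counts in CK libraries. All CKp25 libraries were above the CK libraries, CKp25_2wk_4894 most of all, and the call held without any single library, with log2 fold changes of 2.08 to 3.04. At 6 weeks Epha2 had 2.20, 1.61 and 2.00 CPM in CKp25 libraries, against 0.610, 2.02 and 1.22 CPM in CK libraries, with no call (log2 fold change 0.57 ± 0.49 (SE), adjusted p = 0.404). The 6-week groups overlapped, since CK_6wk_3938 lay within the CKp25 libraries.

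Epha4, Epha6 and Epha7 were lower at both times, and Epha5 at 6 weeks. At 2 weeks Epha4, which binds both classes of ephrins and acts on dendritic spines, had 444, 389 and 366 CPM in CKp25 libraries, against 523, 509 and 544 CPM in CK libraries (log2 fold change -0.39 ± 0.11 (SE), adjusted p = 0.0186). At 6 weeks Epha4 had 247, 346 and 323 CPM in CKp25 libraries, against 469, 569 and 505 CPM in CK libraries (log2 fold change -0.75 ± 0.11 (SE), adjusted p = 7.54e-05). The groups were apart at both times, with CKp25_6wk_3937 lowest. At 2 weeks Epha6 had 195, 193 and 179 CPM in CKp25 libraries, against 248, 251 and 252 CPM in CK libraries (log2 fold change -0.40 ± 0.09 (SE), adjusted p = 0.0041). At 6 weeks Epha6 had 132, 173 and 162 CPM in CKp25 libraries, against 231, 263 and 218 CPM in CK libraries (log2 fold change -0.61 ± 0.09 (SE), adjusted p = 8.57e-05). The groups of Epha6, a receptor of A class ephrins, were again apart.

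At 2 weeks Epha7 had 159.6, 150.2 and 132 CPM in CKp25 libraries, against 190.3, 164 and 190.4 CPM in CK libraries (log2 fold change -0.30 ± 0.10 (SE), adjusted p = 0.0392). At 6 weeks Epha7, a receptor of A class ephrins that shapes dendrites, had 100.4, 129 and 129.7 CPM in CKp25 libraries, against 179.6, 184 and 165 CPM in CK libraries (log2 fold change -0.56 ± 0.10 (SE), adjusted p = 0.000376). CKp25 libraries were below CK libraries, narrowly so at 2 weeks. At 6 weeks Epha5, a receptor of A class ephrins in topographic maps, had 112, 139.8 and 125 CPM in CKp25 libraries, against 147, 162 and 143 CPM in CK libraries (log2 fold change -0.26 ± 0.08 (SE), adjusted p = 0.0189), with a narrow gap between the groups. The 2-week Epha7 call was lost without CKp25_2wk_4890, CKp25_2wk_4894, CK_2wk_4520, CK_2wk_4893 or CK_6wk_3936 (log2 fold changes of -0.22 to -0.32, adjusted p of 0.0508 to 0.2) and without CK_2wk_4520 and CKp25_2wk_4518 together (-0.33, adjusted p = 0.0585). The Epha5 call was lost without CKp25_6wk_3937, CKp25_6wk_4008 or CK_6wk_3938 (log2 fold changes of -0.18 to -0.26, adjusted p of 0.0531 to 0.0969). The 2-week Epha4 call was lost without CKp25_2wk_4890, CKp25_2wk_4894 or CK_2wk_4893 (log2 fold changes of -0.33 to -0.38, adjusted p of 0.061 to 0.107).

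EphB receptors split at 6 weeks and none was called at 2 weeks. At 6 weeks Ephb4, the ephrin-B2 receptor of veins, had 17.0, 11.0 and 14.2 CPM in CKp25 libraries, against 8.54, 6.68 and 7.33 CPM in CK libraries (log2 fold change 0.89 ± 0.21 (SE), adjusted p = 0.00376). At 6 weeks Ephb1 had 42.4, 40.3 and 42.6 CPM in CKp25 libraries, against 29.3, 30.8 and 35.1 CPM in CK libraries (log2 fold change 0.39 ± 0.11 (SE), adjusted p = 0.00976). All CKp25 libraries of both genes were above the CK libraries. At 6 weeks Ephb6, whose kinase domain is inactive, had 46.6, 57.3 and 51.5 CPM in CKp25 libraries, against 70.0, 63.7 and 78.6 CPM in CK libraries (log2 fold change -0.45 ± 0.10 (SE), adjusted p = 0.00249), with all CKp25 libraries lower. At 2 weeks the log2 fold changes were 0.06 ± 0.22 for Ephb4, 0.06 ± 0.11 for Ephb1 and -0.19 ± 0.10 for Ephb6. The call for Ephb1, a receptor that sends retinal axons to the same side of the brain, was lost without CK_6wk_3936 (log2 fold change 0.33, adjusted p = 0.0508) and with the share of reads with several alignments as a covariate (0.38, adjusted p = 0.054). Ephb2, which associates with NMDA receptors at synapses, was not called, with log2 fold changes of -0.13 ± 0.10 at 2 weeks and -0.28 ± 0.11 at 6 weeks (adjusted p = 0.0545).

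Robo1 and Robo2, the main neuronal Slit receptors, were the Robo genes called between CKp25 and CK. At 2 weeks Robo2 had 144, 140.2 and 138 CPM in CKp25 libraries, against 169, 165 and 164 CPM in CK libraries (log2 fold change -0.24 ± 0.07 (SE), adjusted p = 0.0183). At 6 weeks Robo2 had 124, 142 and 130.2 CPM in CKp25 libraries, against 181, 172 and 161 CPM in CK libraries (log2 fold change -0.38 ± 0.07 (SE), adjusted p = 0.000454). At 6 weeks Robo1 had 70.8, 73.3 and 83.5 CPM in CKp25 libraries, against 85.8, 115 and 84.2 CPM in CK libraries (log2 fold change -0.32 ± 0.11 (SE), adjusted p = 0.0266). The CKp25 libraries were below those of CK in each case, and in Robo1 CKp25_6wk_4008 and CK_6wk_4009 nearly touched. At 2 weeks Robo1 had a log2 fold change of 0.02 ± 0.10. The Robo1 call was lost without CKp25_6wk_3937, CKp25_6wk_3940 or CK_6wk_3938 (log2 fold changes of -0.17 to -0.31, adjusted p of 0.0561 to 0.184) and with the share of reads with several alignments as a covariate (-0.33, adjusted p = 0.0763). The 2-week Robo2 call was lost without CKp25_2wk_4890, CKp25_2wk_4894, CK_2wk_4520 or CK_2wk_4891 (log2 fold changes of -0.22 to -0.25, adjusted p of 0.0511 to 0.083) and without CK_2wk_4520 and CKp25_2wk_4518 together (-0.24, adjusted p = 0.0607). Robo4, an endothelial member, had log2 fold changes of -0.02 ± 0.22 at 2 weeks and 0.38 ± 0.22 at 6 weeks and was not called.

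Of the 4 Unc5 receptors, 1 was called. At 2 weeks Unc5a, a netrin receptor that mediates repulsion and can trigger cell death when unbound, had 86.1, 76.8 and 75.0 CPM in CKp25 libraries, against 98.6, 90.8 and 105 CPM in CK libraries, just outside the threshold (log2 fold change -0.31 ± 0.11 (SE), adjusted p = 0.0503). At 6 weeks Unc5a had 47.6, 66.8 and 62.9 CPM in CKp25 libraries, against 94.8, 110.3 and 96.9 CPM in CK libraries (log2 fold change -0.76 ± 0.11 (SE), adjusted p = 4.81e-05). The CKp25 libraries were below the CK libraries at both times. Unc5c was not called and had a log2 fold change of -0.10 ± 0.09 at 6 weeks with a 95% interval of -0.29 to 0.09. Unc5b, a receptor of blood vessels, had 0.33 ± 0.16 and Unc5d, which also binds Flrt proteins, had -0.14 ± 0.12 on the same log2 scale.

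**Figure D4:**
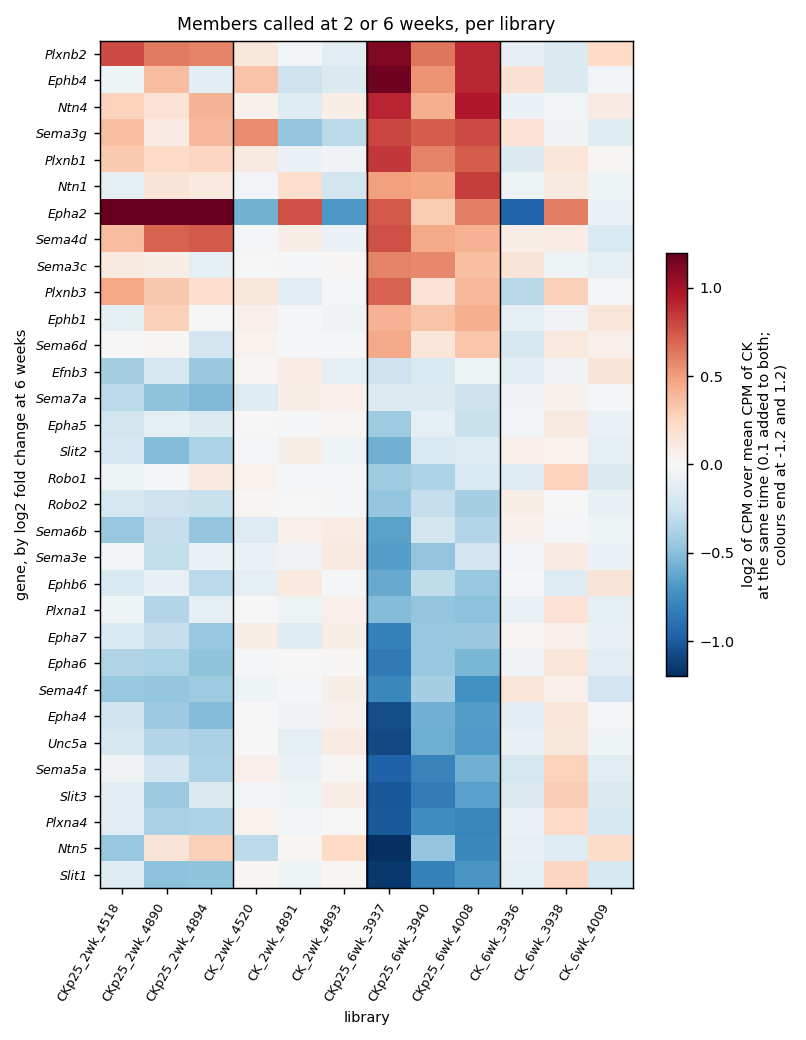
Members called at 2 or 6 weeks, in each library, as log2 of CPM over the mean CPM of CK at the same time (0.1 added to both; colours end at -1.2 and 1.2). Columns are libraries, in 4 blocks of 3, and members run down the page by log2 fold change at 6 weeks, Plxnb2 at the top and Slit1 at the bottom. The CKp25 block of 6 weeks is red at the top and blue at the bottom, Epha2 is deep red in CKp25 at 2 weeks, and CKp25_6wk_3937 has the deepest blue for Slit1, Plxna4, Epha4 and Unc5a.

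Whether the difference between CKp25 and CK itself changed with time was tested in the same fit. Of all genes 0.374% were called for a larger and 0.180% for a smaller log2 fold change at 6 weeks, and no member was called with edgeR's quasi-likelihood test. Of the 65, 18 had an unadjusted p under 0.05, and the share of all genes with such a p was not counted. Limma-voom called 0 members and 61 of all genes. DESeq2 called 2 members, Plxna4 and Plxnb1, and 219 of all genes, where edgeR called 80. Without the filter on low counts, edgeR called 6 members, which were Plxna4, Plxnb1, Sema5a, Slit1, Slit3 and Unc5a. The calls of all genes for the difference in that fit were not counted. The log2 fold change of Plxna4 at 6 weeks minus that at 2 weeks was -0.54 ± 0.15 (SE; adjusted p = 0.0967 in edgeR and 0.0148 in DESeq2). The same difference for Plxnb1 was 0.46 ± 0.12 (SE; adjusted p = 0.0861 in edgeR and 0.0466 in DESeq2), and without CKp25_6wk_3940 it passed in edgeR too (0.50, adjusted p = 0.0468). For Epha2 it was -1.83 ± 0.68 (SE; adjusted p = 0.223).

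Within CKp25, 17 members were called at 6 weeks against 2 weeks, where 11.7% of all genes tested were called. Of these, 6 were higher at 6 weeks, with log2 fold changes of 0.73 ± 0.21 for Ephb4, 0.60 ± 0.08 for Plxnb1, 0.57 ± 0.15 for Plxnb3, 0.50 ± 0.10 for Sema3c, 0.44 ± 0.11 for Ephb1 and 0.40 ± 0.09 for Sema6d. The other 11 were lower at 6 weeks. The log2 fold change of Epha2 was -1.50 ± 0.38, and those of Slit3, Robo3, Slit1, Sema3e, Plxna4, Sema5a, Unc5a, Plxna1, Epha4 and Ephb6 lay between -0.55 and -0.34. Robo3, which lowers Slit repulsion in commissural axons, was called only here. Robo3 had 14.8, 13.2 and 15.6 CPM in CKp25 at 6 weeks, against 23.0, 18.5 and 22.1 CPM in CKp25 at 2 weeks (log2 fold change -0.55 ± 0.17 (SE), adjusted p = 0.0439), and every 6-week library was below every 2-week library. These comparisons share CKp25 libraries with the comparisons of CKp25 and CK above.

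Within CK, edgeR called 0 members and 0% of all genes at 6 weeks against 2 weeks. Of the 65 members, 2 had an unadjusted p under 0.05, and DESeq2 and limma-voom called 0. The count within CKp25 changed when single libraries were left out: it was 5 without CKp25_6wk_3937 and 9 without CKp25_2wk_4518. The calls of all genes over time in those fits were not counted, so a change of the whole table cannot be told from one of the set. Plxna1, Plxnb1, Sema3c and Sema3e were called in every alternative. The Epha2 call over time was lost without CKp25_2wk_4894, CKp25_6wk_3937 or CKp25_6wk_4008 (log2 fold changes of -1.19 to -1.59, adjusted p of 0.0502 to 0.0914). The Plxna4 call was lost without CKp25_6wk_3937 (log2 fold change -0.39, adjusted p = 0.0505), and that of Slit3 without CKp25_6wk_3937 (log2 fold change -0.47, adjusted p = 0.0548). The Plxnb3 call was lost without CKp25_2wk_4894 or CKp25_6wk_3937 (log2 fold changes of 0.43 to 0.49, adjusted p of 0.0907 to 0.109). The Sema6d call was lost without CKp25_2wk_4894 or CKp25_6wk_3937 (log2 fold changes of 0.31 to 0.33, adjusted p of 0.061 to 0.0792).

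Of the other calls over time, that of Slit1 was lost without CKp25_2wk_4518 or CKp25_6wk_3937 (log2 fold changes of -0.38 to -0.39, adjusted p of 0.0577 to 0.0958) and without CK_2wk_4520 and CKp25_2wk_4518 together (-0.39, adjusted p = 0.0585). The Sema5a call was lost without CKp25_2wk_4518 or CKp25_6wk_3937 (log2 fold changes of -0.39 to -0.40, adjusted p of 0.0596 to 0.103) and without CK_2wk_4520 and CKp25_2wk_4518 together (-0.40, adjusted p = 0.0587). The Unc5a call was lost without CKp25_2wk_4518 or CKp25_6wk_3937 (log2 fold changes of -0.29 to -0.37, adjusted p of 0.0559 to 0.0939) and without CK_2wk_4520 and CKp25_2wk_4518 together (-0.37, adjusted p = 0.0582). The Ephb1 call was lost without CKp25_2wk_4518 or CKp25_2wk_4894 (log2 fold changes of 0.33 to 0.39, adjusted p of 0.0675 to 0.0758) and without CK_2wk_4520 and CKp25_2wk_4518 together (0.33, adjusted p = 0.0791). The Epha4 call was lost without CKp25_2wk_4518, CKp25_2wk_4890, CKp25_6wk_3937 or CKp25_6wk_4008 (log2 fold changes of -0.26 to -0.43, adjusted p of 0.0551 to 0.149), in a fit of those groups alone (-0.38, adjusted p = 0.0673) and without CK_2wk_4520 and CKp25_2wk_4518 together (-0.32, adjusted p = 0.096). The Ephb6 call was lost without CKp25_2wk_4518, CKp25_2wk_4890, CKp25_6wk_3937 or CKp25_6wk_4008 (log2 fold changes of -0.27 to -0.35, adjusted p of 0.0692 to 0.168), in a fit of those groups alone (-0.34, adjusted p = 0.0539) and without CK_2wk_4520 and CKp25_2wk_4518 together (-0.35, adjusted p = 0.0601). The Ephb4 call was lost without CKp25_2wk_4518, CKp25_2wk_4894, CKp25_6wk_3937 or CKp25_6wk_4008 (log2 fold changes of 0.57 to 0.71, adjusted p of 0.0779 to 0.158), in DESeq2's Wald test (0.72, adjusted p = 0.0501) and without CK_2wk_4520 and CKp25_2wk_4518 together (0.64, adjusted p = 0.0739). The Robo3 call, the one with the largest adjusted p, was lost without CKp25_2wk_4518, CKp25_2wk_4894, CK_2wk_4891, CK_2wk_4893, CKp25_6wk_3937, CKp25_6wk_3940 or CKp25_6wk_4008 (log2 fold changes of -0.50 to -0.61, adjusted p of 0.0565 to 0.116), in DESeq2's Wald test (-0.56, adjusted p = 0.0589), without CK_2wk_4520 and CKp25_2wk_4518 together (-0.50, adjusted p = 0.117) and with the share of reads with several alignments as a covariate (-0.49, adjusted p = 0.0678).

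Other genes of guidance pathways were counted from lists by role, against 11.6% of all genes called higher and 7.99% lower at 2 weeks, and 18.1% higher and 15.2% lower at 6 weeks. Some of the list counts lie near those shares, and several on the lower side lie above them. None is read as particular to its list. Of 21 coreceptors and other guidance receptors, 4 were called at 2 weeks, all higher, and 6 were higher and 7 lower at 6 weeks. Cd72, the immune cell receptor of Sema4d, had 6.42 ± 2.55 CPM in CKp25 against 0.279 ± 0.484 CPM in CK at 2 weeks and 4.25 ± 1.65 CPM in CKp25 against 0.126 ± 0.110 CPM in CK at 6 weeks (SD, n = 3), and was called at both times. Itgb1, the integrin beta-1 through which Sema7a signals, had log2 fold changes of 0.46 at 2 weeks and 0.58 at 6 weeks, both called. Dcc, the attractive netrin receptor, had 30.5 ± 5.94 CPM in CKp25 against 46.8 ± 4.88 CPM in CK at 6 weeks and was lower there (log2 fold change -0.61). L1cam, Dscam, Dscaml1, Chl1 and Nrcam, adhesion molecules of growing axons, were lower at 6 weeks, with log2 fold changes of -0.54 to -0.27.

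Of 14 other guidance and growth-inhibiting ligands tested, 5 were called at 2 weeks, all lower, and 2 were higher and 2 lower at 6 weeks. Rgma, a repellent that binds neogenin, had 41.1 ± 4.17 CPM in CKp25 against 21.2 ± 1.28 CPM in CK at 6 weeks (log2 fold change 0.95), and Mag, an inhibitor carried by myelin that is also on the oligodendrocyte list, had 193 ± 20.8 CPM in CKp25 against 124 ± 10.3 CPM in CK (log2 fold change 0.63); Ntng2, a membrane-bound netrin-G, had 12.8 ± 2.41 CPM in CKp25 against 21.6 ± 2.68 CPM in CK (log2 fold change -0.75). Of 7 receptors of myelin inhibitors tested, 2 were called at 2 weeks, both lower, and 1 was higher and 5 lower at 6 weeks. Rtn4r, the Nogo receptor, had 31.7 ± 6.90 CPM in CKp25 against 53.0 ± 0.873 CPM in CK at 6 weeks (log2 fold change -0.73), and its partner Lingo1 had 68.2 ± 6.91 CPM in CKp25 against 102 ± 3.68 CPM in CK (log2 fold change -0.57).

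Further lists held genes that act downstream of the receptors. Of 18 genes of semaphorin and plexin signalling, 3 were higher and 2 lower at 2 weeks, and 4 were higher and 3 lower at 6 weeks. Crmp1, a collapsin response mediator, had 93.0 ± 11.4 CPM in CKp25 against 142 ± 9.63 CPM in CK at 6 weeks (log2 fold change -0.61), while Fes, a tyrosine kinase of plexin-A1 signalling that is also strong in myeloid cells, had 13.3 ± 1.40 CPM in CKp25 against 1.57 ± 0.729 CPM in CK (log2 fold change 3.04). Of 16 genes of ephrin and Eph signalling, 1 was higher and 4 lower at 2 weeks, and 4 were higher and 8 lower at 6 weeks. Chn1, a Rac inhibitor downstream of Epha4, had 457 ± 62.8 CPM in CKp25 against 739 ± 25.7 CPM in CK at 6 weeks (log2 fold change -0.69), and Kalrn, an exchange factor of dendritic spines, had 578 ± 63.7 CPM in CKp25 against 967 ± 60.9 CPM in CK (log2 fold change -0.74).

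Of 18 genes of Slit, Robo and netrin signalling, 2 were higher and 1 lower at 2 weeks, and 4 were higher and 9 lower at 6 weeks. Srgap3, a Slit-Robo GTPase-activating protein, had 262 ± 6.56 CPM in CKp25 against 370.2 ± 42.5 CPM in CK at 6 weeks (log2 fold change -0.50), and Dock1, an exchange factor of Rac downstream of Dcc, had 98.8 ± 12.8 CPM in CKp25 against 59.1 ± 3.00 CPM in CK (log2 fold change 0.74). Of 12 actin effectors, 3 were called at 2 weeks and 5 at 6 weeks, all lower, among them Cyfip2 with 644 ± 78.9 CPM in CKp25 against 907 ± 38.7 CPM in CK at 6 weeks (log2 fold change -0.49). Median log2 fold changes at 6 weeks were 0.04 for coreceptors, -0.01 for other ligands, -0.57 for receptors of myelin inhibitors, -0.09 for semaphorin and plexin signalling, -0.15 for ephrin and Eph signalling, -0.21 for Slit, Robo and netrin signalling and -0.16 for actin effectors, against 0.00 for all genes tested.

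The 5 remaining members were too low to be tested. Efna4 had 11 counts in CKp25 and 3 in CK at 2 weeks, and 8 in CKp25 and 1 in CK at 6 weeks. Epha1 had 4 counts in CKp25 and 2 in CK at 2 weeks, and 3 in CKp25 and 8 in CK at 6 weeks. Plxna4os1, antisense to Plxna4, had 13 counts in CKp25 and 4 in CK at 2 weeks, and 24 in CKp25 and 2 in CK at 6 weeks; the 6-week ratio of CKp25 to CK per TMM-scaled library size was 11.2, with an exact 95% interval of 2.78 to 97.7 that covers counting error only. How strand was treated in counting is unknown here, so reads of Plxna4 and its antisense entries may not be told apart. Plxna4os2 and Plxna4os3 had 0 counts in all libraries.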

How the data were processed

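Per the labels' protocols, hippocampal total RNA was prepared with a stranded kit after removal of ribosomal RNA. Raw read counts per Ensembl gene were deposited by the authors in 1 table of 12 library columns, all of them used. The submitters' processing notes name the tools HTSeq 0.6.1, Bowtie, Picard and MACS2 and the builds NCBIM37 and mm9, and strand handling in counting was not stated. Entries that name no gene held 60.0 to 63.6% of a column's total and were left out of all fits. Symbols came from the supplied table of IDs, which named 32919 of the 37991 genes (86.6%). The 28 deposited peak lists of 7 histone marks were not analysed here.

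Genes passing filterByExpr (14457) were fitted with edgeR 4.0.16 in R 4.3.3 as quasi-likelihood models with TMM factors and 4 group means over 12 libraries. The fit was also run on simulated data with known changes. Those were absolute log2 fold changes of at least 1 in CKp25 at 6 weeks, so smaller changes and the other contrasts were not covered. Tested were CKp25 against CK at 2 and at 6 weeks, whether these effects differed, and 6 against 2 weeks within each genotype. DESeq2 1.42.0 and limma 3.58.1 (voom) were alternatives, beside other filters, size factors, covariates and left-out libraries. Libraries of a group differed by more than sampling noise. A difference within a few counts of a low gene was not detectable at this depth, and intervals on counts cover counting error only.

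The members and gene lists were chosen with earlier results of these data known. Named with values were the members called between CKp25 and CK, by contrast, and of those not called the one with the highest mean CPM in a family. Other members not called, among them Sema3a, Sema3b, Robo4, Unc5b and Unc5d, were also named, outside that rule. Calls over time within CKp25 were given by fold change, some as a range. Promoters were shown for called members with an absolute log2 fold change of at least 1, and others as stated.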

Additional observations from a re-analysis of the deposited data

How the results depend on the processing

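No paired analysis was possible because the library numbers are not shared between groups. Within each time the first digits of these numbers form a pair of series, each with libraries of both genotypes, and the labels do not call them batches. With the series as a block, an alternative chosen after the data were seen, 4 members were higher and 13 lower at 2 weeks, 12 higher and 20 lower at 6 weeks, and 20 were called over time within CKp25; no call of the fit without it was lost. Of the 14 members called at 2 weeks, 6 were called in every alternative (Epha2, Epha6, Plxnb2, Sema4d, Sema6b and Sema7a), as were 20 of the 28 called at 6 weeks and 4 of the 17 called over time within CKp25, and none changed sign. Leaving out 1 library at a time gave 3 to 5 members higher and 4 to 13 lower at 2 weeks, 8 to 12 higher and 14 to 22 lower at 6 weeks, 5 to 22 called over time within CKp25, and 0 to 1 for the difference between times. The lowest counts on the lower side at 2 weeks were 4 without CKp25_2wk_4894 and 5 without CKp25_2wk_4890. All genes called lower fell too, from 1155 of 14457 tested to 476 of 14609 and 815 of 14702. Over all genes, leaving out 1 library gave 1330 to 1783 higher and 476 to 1302 lower at 2 weeks. At 6 weeks it gave 2006 to 2668 higher and 1495 to 2388 lower. With the block, all genes gave 1818 higher and 1418 lower at 2 weeks, and 2806 higher and 2355 lower at 6 weeks. With the share of reads with several alignments as a covariate, all genes gave 2249 higher and 1722 lower at 6 weeks. The fit with no covariate gave 2614 higher and 2197 lower then. Without CKp25_2wk_4518 and CK_2wk_4520 together, 9 members were called over time within CKp25. In the block and left-out fits, the calls of all genes over time within CKp25 were not counted.

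For the difference between times, where edgeR called 0, a fit with no filter on low counts called 6 members (Plxna4, Plxnb1, Sema5a, Slit1, Slit3 and Unc5a), DESeq2 called 2, 1 was called with the share of reads with several alignments as a covariate (Plxnb1), 1 with the mean of choroid plexus genes as one (Plxna4) and 1 with the number series as a block (Plxna4, adjusted p = 0.0486). The unfiltered fit also called 1 member over time within CK, Plxnb3 (log2 fold change 0.47, adjusted p = 0.0194). The cause was not tested, and for these contrasts the calls of all genes were not counted in the unfiltered, covariate and block fits. The scalings run moved the median of all genes by less than 0.1 on the log2 scale. Each of them centres the bulk of genes, so this does not test how far the results depend on scaling.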
